A study of Rattus norvegicus with 23 samples.

Results

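The genes of folate, serine and methionine metabolism were followed in rat liver as a set of 37 named genes. They were chosen by their role in the pathway among genes that were present in the count table and expressed. That all 37 had a row among its 28913 genes was therefore fixed by the choice. All 37 were also among the 15079 genes abundant enough to be tested, which the choice of expressed genes favoured. By role, 8 make serine and glycine or cleave glycine, 12 carry folate and its one-carbon units, 11 belong to the methionine cycle, 4 oxidise choline and sarcosine, and 2 form the transsulfuration branch.

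RNA was sequenced from the livers of Sprague Dawley rats in 3 groups with 23 libraries in all. The 10 Selfox libraries came from rats fed a diet enriched in selenium for 8 weeks and injected intravenously, once a week and 8 times in all, with 3 drugs: 3 mg/kg of oxaliplatin, 25 mg/kg of the antimetabolite 5-fluorouracil and 45 mg/kg of folinic acid. The 7 LPS libraries came from rats given bacterial lipopolysaccharide at 1 mg/kg, 2 times per week for 8 weeks, through a catheter placed surgically in the portal vein. The 6 Control libraries came from rats with no treatment, for which no surgery or special diet is given. The diet and the 3 drugs were given together, so their parts cannot be told apart, and the same holds for the surgery and the lipopolysaccharide. Both models share the same Control libraries. Nothing states that each library is a separate rat, so the p-values measure the spread between libraries.

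One-carbon metabolism moves single carbon groups on tetrahydrofolate. Serine is the main donor: serine hydroxymethyltransferase and the glycine cleavage system load folate, and the folate enzymes then change the oxidation state of the carbon and spend it on purines, thymidylate and the remethylation of homocysteine. In liver the methionine cycle is unusually active, because hepatocytes make most of the body's S-adenosylmethionine and remethylate homocysteine with betaine, the oxidation product of choline, as well as with folate. The Selfox drugs touch this network directly as background: folinic acid is itself a reduced folate, and a metabolite of 5-fluorouracil inhibits thymidylate synthase.

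The start-site regions of 5 members are shown because these genes carry the largest differences, together with Psph, the last enzyme of the same short pathway as Phgdh and Psat1. Each sequence is a RefSeq window of 300 bases, 250 before and 50 after the annotated start, written 5′ to 3′ along the gene, on assembly GRCr8; the build behind the deposited counts is not given in the sources used here. Capitals mark CCAAT on either strand, the box known to bind the factor NF-Y.
Phgdh, chr2:188624740-188625039, minus strand: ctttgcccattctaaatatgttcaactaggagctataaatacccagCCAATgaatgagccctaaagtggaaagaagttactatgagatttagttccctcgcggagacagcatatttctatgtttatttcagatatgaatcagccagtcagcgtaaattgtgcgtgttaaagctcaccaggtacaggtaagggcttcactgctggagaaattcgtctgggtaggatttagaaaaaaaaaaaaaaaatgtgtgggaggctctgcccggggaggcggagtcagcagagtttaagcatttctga
Psat1, chr1:222645359-222645658, minus strand: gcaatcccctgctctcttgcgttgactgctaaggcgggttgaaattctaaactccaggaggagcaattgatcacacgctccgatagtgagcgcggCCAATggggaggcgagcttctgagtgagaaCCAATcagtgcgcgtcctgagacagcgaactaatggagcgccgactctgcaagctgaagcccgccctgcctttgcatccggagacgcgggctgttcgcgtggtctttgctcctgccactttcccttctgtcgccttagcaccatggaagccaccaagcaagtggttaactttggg
Psph, chr12:32526841-32527140, plus strand: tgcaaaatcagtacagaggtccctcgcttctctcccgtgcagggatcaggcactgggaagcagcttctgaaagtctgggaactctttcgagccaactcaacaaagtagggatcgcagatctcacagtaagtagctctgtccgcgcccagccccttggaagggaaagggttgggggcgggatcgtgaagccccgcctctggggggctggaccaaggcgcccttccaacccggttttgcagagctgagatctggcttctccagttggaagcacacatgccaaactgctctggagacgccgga
Mthfd2, chr4:117380301-117380600, minus strand: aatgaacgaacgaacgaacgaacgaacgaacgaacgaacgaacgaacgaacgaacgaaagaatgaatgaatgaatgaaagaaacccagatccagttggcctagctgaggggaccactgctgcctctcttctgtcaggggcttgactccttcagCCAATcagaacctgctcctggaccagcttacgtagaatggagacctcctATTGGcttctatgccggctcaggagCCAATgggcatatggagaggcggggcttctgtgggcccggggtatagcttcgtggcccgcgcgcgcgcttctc
Aldh1l1, chr4:124616970-124617269, plus strand: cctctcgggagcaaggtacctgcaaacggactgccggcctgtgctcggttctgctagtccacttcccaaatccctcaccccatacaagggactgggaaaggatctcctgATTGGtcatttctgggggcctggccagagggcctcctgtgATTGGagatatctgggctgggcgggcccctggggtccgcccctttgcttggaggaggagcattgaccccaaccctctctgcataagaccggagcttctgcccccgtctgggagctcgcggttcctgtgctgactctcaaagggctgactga

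The window of Phgdh held 1 CCAAT, with its first base 204 bases before the start, and those of Psat1 and Aldh1l1 held 2 each. The Mthfd2 window held 3, the nearest 23 bases before the start, and the Psph window held none. Of the 37 members, 32 had such a window in the table, and 22 of the 32 held CCAAT on either strand, against 37.5% of all 33469 windows and 37.2% of the 11516 windows of tested genes. The count did not separate directions: 7 of the 9 windows of members higher in Selfox held it, and so did 7 of the 10 of members lower in Selfox. The C/EBP-ATF response element TGATGNAA, through which ATF4 acts on amino acid genes, was found in 0 of 32 member windows, against 3.98% of all windows and 2.05% of those of tested genes. The E-box CACGTG was in 4 (Shmt1, Sardh, Cth and Atic; 6.42% of all and 8.74% of tested genes) and the antioxidant response element TGACNNNGC in 6 (12.1% and 14.5%). The sterol response element TCACNCCAC was in 1 (Slc46a1; 1.12% and 1.05%), the glucocorticoid response element in 1 (Gnmt; 0.439% and 0.304%), and the PPAR response element in 0 (0.0538% and 0.0347%). At such low shares, counts of 0 or 1 in 32 windows say little. All 7 motifs were searched on both strands, and overlapping matches of different motifs were counted for each; a match here is a run of letters in this window and no more.

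Libraries held 65.1 to 74.8 M counts in Selfox, 70.4 to 79.2 M in LPS and 31.9 to 53.8 M in Control, which was thus the shallowest group. Hepatocyte markers were present in every library, with 0 of 8 at zero and a summed level of 144000 to 167000 CPM (counts in proportion to the TMM-scaled library) in Selfox, 127000 to 201000 in LPS and 164000 to 242000 in Control. Of these 8 markers, 4 were lower in Selfox than in Control, among them Apoa1 at -1.02 and Hnf4a at -0.53 on the log2 scale, and 2 were higher; none passed edgeR's test in LPS against Control, where 3 had an unadjusted p under 0.05. The part of these shifts in the results for the members was not tested. Libraries in which the clock gene Dbp exceeded its counterpart Arntl, the reverse of the others, were 1 of 10 in Selfox, 3 of 7 in LPS and 1 of 6 in Control (Selfox 8, LPS 5, LPS 6, LPS 7 and Control 55). The gap was graded, with log2 CPM of 3.352 for Dbp and 3.348 for Arntl in Selfox 8, and 6.546 and 0.5305 in LPS 6. Results were recomputed without these late-clock libraries. The part of the smaller number of libraries in calls lost that way was not tested. In bulk liver, fewer cells of a type and less RNA per cell cannot be told apart. The 37 members together took 1.16% ± 0.0709 of all counts in Selfox, 1.12% ± 0.0888 in LPS and 0.985% ± 0.123 in Control (SD; n = 10, 7 and 6). The smallest count behind any member value was 21, for Mthfd1l in Selfox 5.

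In Selfox livers the enzymes that make serine, and the mitochondrial folate enzyme Mthfd2, were lower than in Control, while the 3 glycine cleavage genes, the 4 choline and sarcosine oxidation genes, Bhmt and Bhmt2, and the folate enzyme Aldh1l1 were higher. In LPS livers Gldc and Gcsh of the glycine cleavage system, the 4 choline and sarcosine oxidation genes, Mthfd1, Bhmt2 and Aldh1l1 were higher, and Phgdh, Atic and Mat2a were lower. Against Control, 22 of 37 members passed the threshold in Selfox (12 higher, 10 lower), where 29.1% of all tested genes did (14.2% higher, 14.9% lower). In LPS 12 of 37 passed it (9 higher, 3 lower), where 14.7% of all tested genes did (7.71% higher, 6.99% lower). The threshold was an adjusted p of 0.05 from edgeR's quasi-likelihood test over all 15079 genes. The 2 comparisons share their Control libraries, and 15 members passed in no comparison. The median log2 fold change of the 37 members was 0.00447 in Selfox and 0.0645 in LPS, beside 0.0115 and 0.0058 over all tested genes; all 4 medians lie near 0, and the sign of the Selfox median for the members changed with the scaling.

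Set directly against LPS, Selfox differed for 6 of 37 members: Aldh1l1, Bhmt2 and Amt were higher, and Mat2a, Psph and Mthfd2 were lower. Of all tested genes, 14.5% differed in that comparison (6.86% higher, 7.64% lower), so the share of members, 16.2%, was close to the background. The values of Selfox did not overlap those of Control for 8 of 37 members, where 4.91% of all genes did not, and those of LPS did not overlap Control for 3 of 37, where 3.64% did not. No member's Selfox values stood wholly apart from its LPS values (1.74% of all genes). Within groups the members varied about as much as other genes: the median SD of log2 CPM was 0.225 in Selfox, 0.217 in LPS and 0.217 in Control, beside 0.249, 0.242 and 0.243 over all tested genes.

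**Figure D1:**
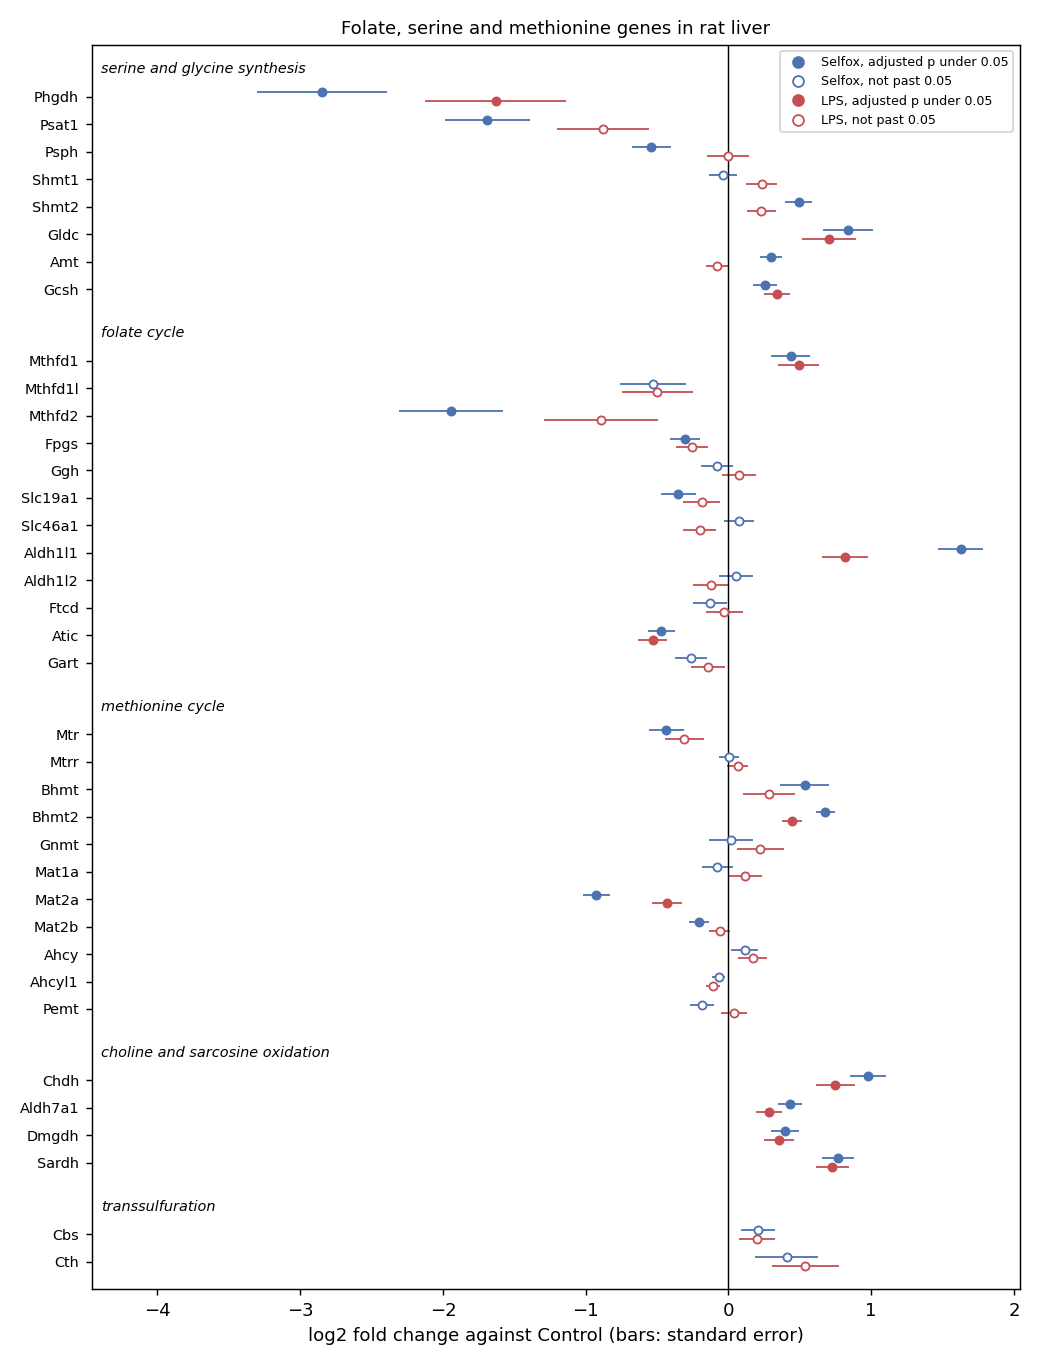
Log2 fold change against Control for each of the 37 members, grouped by role, in Selfox (blue) and LPS (red); bars are standard errors and filled points have an adjusted p under 0.05. Phgdh, Psat1 and Mthfd2 lie farthest to the left and Aldh1l1 farthest to the right in Selfox, and the 4 choline and sarcosine oxidation genes lie to the right of 0 in both models.

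Of the 8 serine and glycine genes, 4 were higher and 3 lower in Selfox, and 2 were higher and 1 lower in LPS. The 3 lower genes in Selfox are the whole pathway from 3-phosphoglycerate to serine, and the higher ones are the mitochondrial serine hydroxymethyltransferase and the 3 glycine cleavage proteins in the list. Phgdh, which oxidises 3-phosphoglycerate and commits it to serine, had 0.891, 1.3 and 4.95 CPM as lowest, median and highest value in Selfox, 1.91, 4.02 and 6.84 CPM in LPS and 1.68, 9.13 and 31.3 CPM in Control. In 8 of 10 Selfox libraries Phgdh was below every Control library; Control 41 alone held the low end of Control. Phgdh fell by 2.85 ± 0.46 on the log2 scale in Selfox (SE, adjusted p = 0.000127) and by 1.63 ± 0.49 in LPS (adjusted p = 0.0299). The difference between Selfox and LPS, -1.22 ± 0.44, did not pass (adjusted p = 0.0661), but it passed with DESeq2, with the 2 groups alone and without Selfox 4.

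Psat1, the aminotransferase of the second step, had 3.77, 4.26 and 8.2 CPM in Selfox, 3.51, 8.45 and 13.8 CPM in LPS and 8.29, 11.5 and 37.4 CPM in Control. All 10 Selfox libraries were below all 6 Control libraries, and the LPS libraries spanned both. Psat1 fell by 1.69 ± 0.29 in Selfox (adjusted p = 0.000261). Its log2 fold change of -0.88 ± 0.32 in LPS did not pass (adjusted p = 0.0713), nor did the difference between Selfox and LPS, -0.81 ± 0.28 (adjusted p = 0.0595). That difference passed with DESeq2 (adjusted p = 0.0246), with the 2 groups alone (adjusted p = 0.0282), and without LPS 4, LPS 6 or Selfox 4. Psph, the phosphatase that releases serine, had 3.71, 4.95 and 6.35 CPM in Selfox, 4.37, 7.54 and 9.7 CPM in LPS and 6.18, 7.25 and 9.4 CPM in Control. In 8 of 10 Selfox libraries it was below every Control library, and LPS spanned the Control range and some way below it. Psph fell by 0.54 ± 0.14 against Control (adjusted p = 0.00468) and by 0.54 ± 0.13 against LPS (adjusted p = 0.00689); LPS differed from Control by -0.01 ± 0.15 (adjusted p = 0.987).

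**Figure D2:**
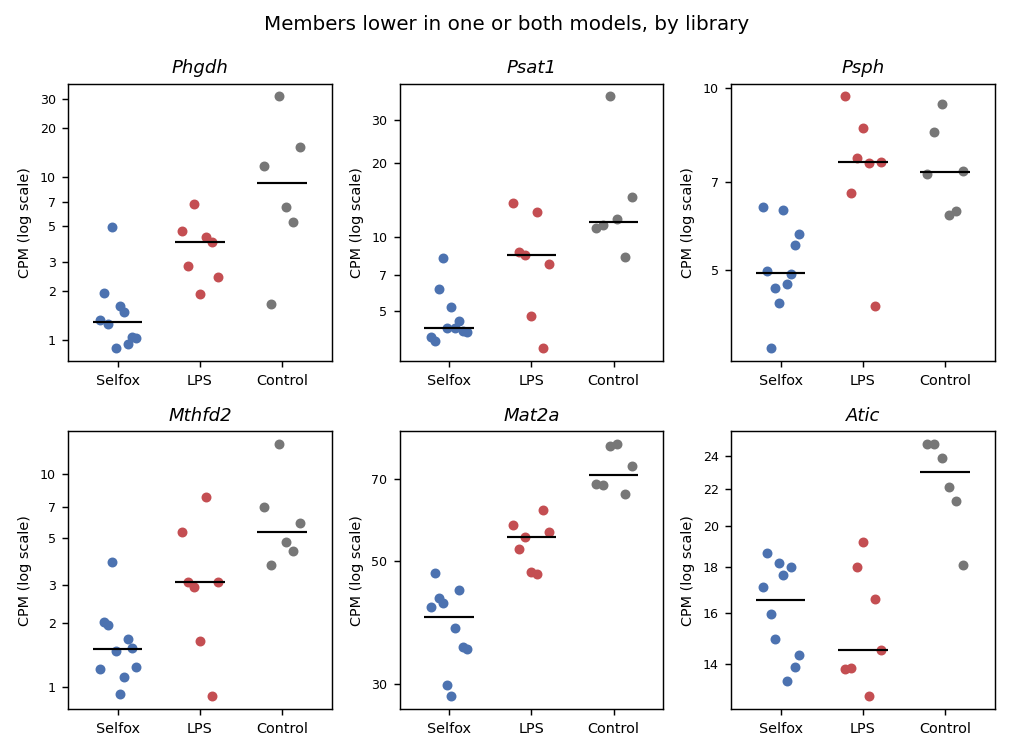
CPM on a log axis in each library for 6 members that were lower in 1 or both models, with a bar at the group median. For Psat1 and Mat2a every Selfox library lies below every Control library; within Control, Control 46 stands highest for Phgdh, Psat1, Psph and Mthfd2.

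One Control library weighed on these values. Control 46 held the highest Control value of Phgdh, Psat1, Psph and Mthfd2, with 31.3 CPM of Phgdh and 37.4 CPM of Psat1, and Selfox 4 held the highest Selfox value of Phgdh, Psat1 and Mthfd2. The same libraries were the highest of their groups for Asns, the asparagine synthetase gene controlled by ATF4, with 17.3 CPM in Selfox 4 and 35.4 CPM in Control 46. Without Control 46 the log2 fold change in Selfox was -2.28 for Phgdh (adjusted p = 0.00057), -1.21 for Psat1 (adjusted p = 0.000972) and -1.58 for Mthfd2 (adjusted p = 0.00278). In LPS the call for Phgdh was lost without it, at -1.08 (adjusted p = 0.13), and also without LPS 2, LPS 4 or LPS 7 (highest adjusted p of those = 0.0551) and without the late-clock libraries (adjusted p = 0.166). The same call was lost with limma voom (-1.06, adjusted p = 0.114), with no filter (adjusted p = 0.0527) and with the 2 groups alone (adjusted p = 0.0616).

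**Figure D3:**
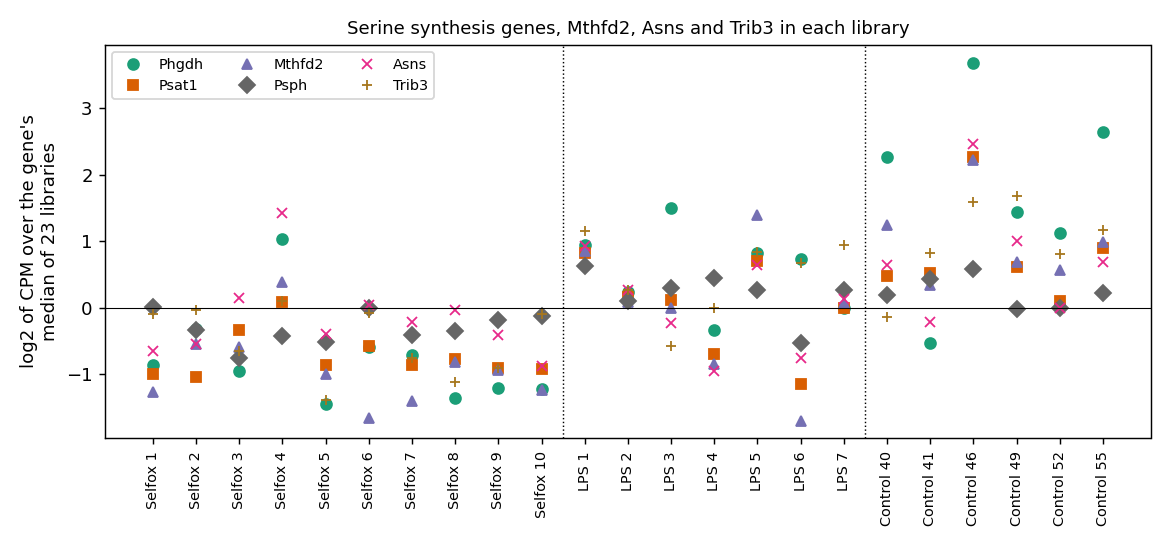
Log2 of CPM over the gene's median of all 23 libraries, for the 3 serine synthesis genes, Mthfd2, Asns and Trib3 in each library; dotted lines part Selfox, LPS and Control. Most Selfox points lie below 0 and most Control points above it, with Selfox 4 and Control 46 as the high libraries of their groups for Phgdh, Psat1, Mthfd2 and Asns.

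Downstream of serine, Shmt2, which makes glycine and loads folate in mitochondria, rose in Selfox by 0.49 ± 0.10 (adjusted p = 0.000547), with 134 to 194 CPM in Selfox, 116 to 166 in LPS and 106 to 156 in Control. Its log2 fold change in LPS was 0.23 ± 0.10 (adjusted p = 0.13), and passed without the late-clock libraries (0.44, adjusted p = 0.00172) or without Control 55 alone, the highest Control library. Shmt1, the cytosolic enzyme for the same reaction, passed in no comparison, with log2 fold changes of -0.04 ± 0.10 in Selfox and 0.23 ± 0.11 in LPS.

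Gldc, the glycine decarboxylase of the glycine cleavage system, had 94.9, 124 and 189 CPM in Selfox, 60.7, 119 and 174 CPM in LPS and 62.9, 71.6 and 88.8 CPM in Control. Selfox lay wholly above Control, and 6 of 7 LPS libraries did, with LPS 6 below every Control library. Gldc rose by 0.84 ± 0.18 in Selfox (adjusted p = 0.00127) and by 0.71 ± 0.19 in LPS (adjusted p = 0.0144). Gcsh, the lipoyl carrier protein of the same system, rose by 0.26 ± 0.08 in Selfox (adjusted p = 0.0227) and by 0.34 ± 0.09 in LPS (adjusted p = 0.0131). Amt, the aminomethyltransferase that passes the carbon to folate, rose in Selfox by 0.30 ± 0.08 against Control (adjusted p = 0.00494) and by 0.38 ± 0.07 against LPS (adjusted p = 0.00107), with 25.4 to 33.7 CPM in Selfox, 19.7 to 27.3 in LPS and 22.2 to 26.0 in Control. Amt in LPS did not pass, at -0.08 ± 0.08 (adjusted p = 0.558). The Gcsh call in Selfox was lost without Control 49 or Control 52.

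Of the 12 folate genes, 2 were higher and 4 lower in Selfox, and 2 were higher and 1 lower in LPS. Aldh1l1, the cytosolic 10-formyltetrahydrofolate dehydrogenase, which burns off one-carbon units as carbon dioxide and returns free tetrahydrofolate, had the highest fold change of the 37 in both models. It had 223, 367 and 562 CPM in Selfox, 162, 232 and 292 CPM in LPS and 114, 124 and 146 CPM in Control. Every library of both models lay above every Control library, and 9 of 10 Selfox libraries lay above every LPS library. Aldh1l1 rose 3.09-fold in Selfox (log2 1.63 ± 0.16, adjusted p = 3.94e-07) and 1.76-fold in LPS (log2 0.82 ± 0.16, adjusted p = 0.00184), and was 1.75-fold higher in Selfox than in LPS (log2 0.81 ± 0.14, adjusted p = 0.000561). Its mitochondrial counterpart Aldh1l2 passed in no comparison, at 0.05 ± 0.12 in Selfox and -0.12 ± 0.13 in LPS.

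Mthfd2, the mitochondrial methylenetetrahydrofolate dehydrogenase and cyclohydrolase, had 0.935, 1.51 and 3.86 CPM in Selfox, 0.91, 3.11 and 7.74 CPM in LPS and 3.75, 5.31 and 13.8 CPM in Control. In 9 of 10 Selfox libraries it was below every Control library, and the LPS libraries spread across both groups. Mthfd2 fell by 1.94 ± 0.37 in Selfox against Control (adjusted p = 0.000498); in LPS its log2 fold change of -0.89 ± 0.40 did not pass (adjusted p = 0.137). The difference between Selfox and LPS was -1.05 ± 0.35 (adjusted p = 0.0485), a call that was lost in 14 of the 17 fits with 1 library left out and without the late-clock libraries (adjusted p = 0.137). Mthfd1, the cytosolic enzyme with 3 activities including the synthesis of 10-formyltetrahydrofolate, rose by 0.43 ± 0.13 in Selfox (adjusted p = 0.017) and by 0.49 ± 0.14 in LPS (adjusted p = 0.0232). The Mthfd1 calls were lost without Control 49 in both models, and in LPS also without Control 41 or Control 46; without the late-clock libraries neither passed (adjusted p = 0.0553 in Selfox and 0.099 in LPS). Mthfd1l, the mitochondrial formate-releasing enzyme and the lowest count of the set, did not pass at -0.53 ± 0.23 in Selfox (adjusted p = 0.0896) and -0.50 ± 0.25 in LPS (adjusted p = 0.19).

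Atic, which uses 10-formyltetrahydrofolate in the last steps of purine synthesis, had 13.4, 16.5 and 18.6 CPM in Selfox, 12.9, 14.5 and 19.2 CPM in LPS and 18.1, 23 and 24.7 CPM in Control. In 8 of 10 Selfox and 6 of 7 LPS libraries Atic was below every Control library. Atic fell by 0.47 ± 0.09 in Selfox (adjusted p = 0.000712) and by 0.53 ± 0.10 in LPS (adjusted p = 0.0015). Gart, the earlier folate-dependent purine enzyme, did not pass at -0.26 ± 0.11 in Selfox (adjusted p = 0.0776) and -0.14 ± 0.12 in LPS (adjusted p = 0.469). Fpgs, which adds the glutamate tail that keeps folate in cells, fell by 0.31 ± 0.10 in Selfox (adjusted p = 0.0297), and Slc19a1, the reduced folate carrier, which also takes up folinic acid, fell by 0.35 ± 0.12 (adjusted p = 0.031). Either call was lost in 4 of 16 fits with 1 library left out, among them those without Control 41, Control 49 or Control 52, and neither gene passed in LPS. Ggh, which removes the glutamate tail, Slc46a1, the proton-coupled folate transporter, and Ftcd, which feeds histidine carbon into folate, passed in no comparison; their log2 fold changes ran between -0.13 and 0.07 in Selfox and between -0.20 and 0.07 in LPS.

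Of the 11 methionine cycle genes, 2 were higher and 3 lower in Selfox, and 1 was higher and 1 lower in LPS. In Selfox Bhmt and Bhmt2 were higher, and both subunits of the extrahepatic S-adenosylmethionine synthetase and methionine synthase were lower. Mat2a, the catalytic subunit of the synthetase form that prevails outside the hepatocyte and in dividing cells, had 28.6, 39.6 and 47.6 CPM in Selfox, 47.4, 55.2 and 61.7 CPM in LPS and 65.9, 71.3 and 80.9 CPM in Control. The 3 groups were stacked in that order: both models lay wholly below Control, and 9 of 10 Selfox libraries lay below every LPS library. Mat2a fell by 0.93 ± 0.09 in Selfox (adjusted p = 5.77e-07) and by 0.43 ± 0.10 in LPS (adjusted p = 0.00696), and Selfox was lower than LPS by -0.49 ± 0.09 (adjusted p = 0.000711). Mat2b, its regulatory subunit, fell by 0.21 ± 0.07 in Selfox (adjusted p = 0.0255), a call lost without Control 40, Control 41 or Control 46. Mat1a, the adult liver enzyme, did not pass, at -0.08 ± 0.11 in Selfox and 0.12 ± 0.12 in LPS.

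Bhmt and Bhmt2 are paralogous methyltransferases that remethylate homocysteine with betaine and S-methylmethionine, respectively. Reads may be shared between them, so their separate levels are uncertain. Bhmt2 had 552, 598 and 687 CPM in Selfox, 458, 526 and 555 CPM in LPS and 334, 387 and 417 CPM in Control. Both models lay wholly above Control and met each other only at the edge. Bhmt2 rose by 0.68 ± 0.07 in Selfox (adjusted p = 4.5e-07) and by 0.44 ± 0.07 in LPS (adjusted p = 0.000399), and was higher in Selfox than in LPS by 0.24 ± 0.06 (adjusted p = 0.0135), a call lost without the late-clock libraries (adjusted p = 0.0719). Bhmt had 2470, 3030 and 4230 CPM in Selfox, 1880, 2560 and 3660 CPM in LPS and 1670, 1900 and 3750 CPM in Control, with Control 40 far above its group. Bhmt rose by 0.53 ± 0.17 in Selfox (adjusted p = 0.022), which was lost without Control 46 or Control 49, and did not pass in LPS at 0.28 ± 0.18 (adjusted p = 0.318). It was called higher in LPS without Control 40 and with limma voom.

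Mtr, the folate- and cobalamin-dependent methionine synthase, fell by 0.43 ± 0.12 in Selfox (adjusted p = 0.0112), with 19 to 35 CPM in Selfox, 20.9 to 28.9 in LPS and 25.6 to 38.7 in Control; its -0.31 ± 0.14 in LPS did not pass (adjusted p = 0.126). Mtrr, which reactivates Mtr, did not pass at 0.00 ± 0.07 in Selfox and 0.06 ± 0.07 in LPS. Gnmt, the glycine methyltransferase that disposes of surplus S-adenosylmethionine, Ahcy and its relative Ahcyl1, of which Ahcy splits S-adenosylhomocysteine, and Pemt, which methylates phosphatidylethanolamine, also passed in no comparison. Their log2 fold changes ran between -0.18 and 0.11 in Selfox and between -0.11 and 0.22 in LPS.

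All 4 choline and sarcosine oxidation genes were higher in both models, and none passed between Selfox and LPS in the fit of all libraries. Without the late-clock libraries Chdh was called higher in Selfox than in LPS. These mitochondrial and cytosolic enzymes turn choline into betaine, and dimethylglycine by way of sarcosine into glycine, passing carbon to folate. Chdh, choline dehydrogenase, had 272, 291 and 335 CPM in Selfox, 181, 248 and 296 CPM in LPS and 115, 132 and 244 CPM in Control. Selfox lay wholly above Control, where Control 55 was the highest library. Chdh rose by 0.98 ± 0.13 in Selfox (adjusted p = 1.36e-05) and by 0.75 ± 0.14 in LPS (adjusted p = 0.000974).

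Sardh, which demethylates sarcosine to glycine, had 241, 277 and 315 CPM in Selfox, 186, 280 and 331 CPM in LPS and 142, 151 and 211 CPM in Control. Selfox again lay wholly above Control, and LPS overlapped it at its lower end. Sardh rose by 0.77 ± 0.11 in Selfox (adjusted p = 2.85e-05) and by 0.73 ± 0.12 in LPS (adjusted p = 0.000369). Aldh7a1, which oxidises betaine aldehyde and also an intermediate of lysine breakdown, rose by 0.43 ± 0.08 in Selfox (adjusted p = 0.000557) and by 0.28 ± 0.09 in LPS (adjusted p = 0.0346). Dmgdh, which demethylates dimethylglycine, rose by 0.39 ± 0.10 in Selfox (adjusted p = 0.0045) and by 0.35 ± 0.11 in LPS (adjusted p = 0.0267). In LPS these smaller calls were lost on leaving out 1 library in 6 of 13 fits for Aldh7a1 (LPS 1, LPS 2, LPS 3, Control 41, Control 49 or Control 52) and in 5 of 13 for Dmgdh (LPS 1, LPS 2, LPS 7, Control 46 or Control 49). The Dmgdh call in LPS was also lost without the late-clock libraries (adjusted p = 0.082).

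**Figure D4:**
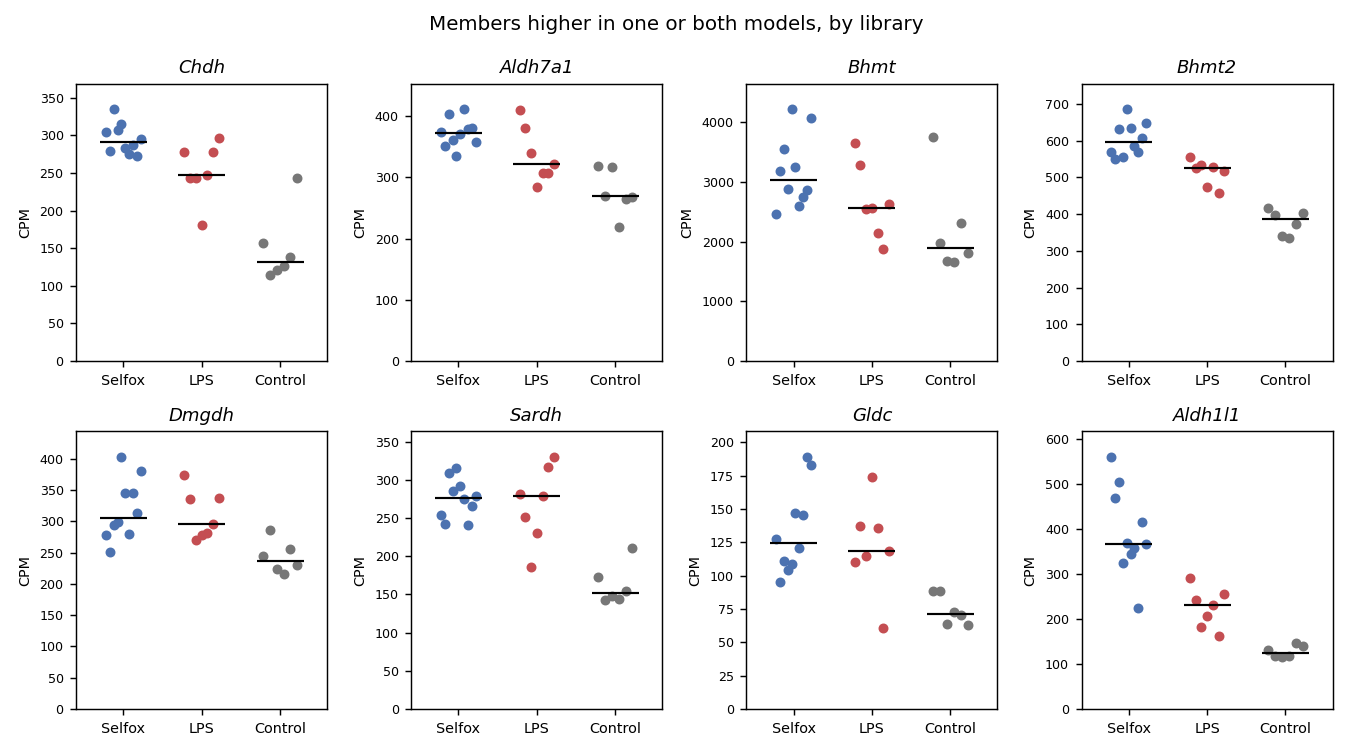
CPM on a linear axis in each library for 8 members that were higher in 1 or both models, with a bar at the group median. Every Selfox library lies above every Control library for 6 of the 8, while for Bhmt and Dmgdh the groups overlap.

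Markers of periportal hepatocytes moved in the same direction as these oxidation genes. Of 10 such markers 6 were higher in Selfox and 5 in LPS, none was lower in either, and none was at zero in every library; their summed level was 10600 to 16500 CPM in Selfox, 11400 to 15000 in LPS and 7330 to 12300 in Control. Of 10 pericentral markers 2 were lower in Selfox and none passed in LPS. The part of these markers in the results for the members was not tested. The transsulfuration pair did not pass in the fit of all libraries. Cbs, which joins homocysteine to serine, stood at 0.21 ± 0.12 in Selfox (adjusted p = 0.196) and 0.20 ± 0.13 in LPS (adjusted p = 0.312). Cth, which releases cysteine, stood at 0.41 ± 0.22 in Selfox (adjusted p = 0.171) and 0.54 ± 0.24 in LPS (adjusted p = 0.13). Cth was called higher in LPS without the late-clock libraries and without LPS 6.

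The members that came nearest to the threshold without passing it were Gart, Mthfd1l and Pemt in Selfox against Control (adjusted p = 0.0776, 0.0896 and 0.103) and Psat1, Mtr and Cth or Shmt2 in LPS against Control (adjusted p = 0.0713, 0.126 and 0.13). Between Selfox and LPS they were Shmt2, Shmt1 and Psat1 (adjusted p = 0.0518, 0.0539 and 0.0595). Shmt2 lay on the threshold there: it passed in 9 of 12 alternatives, among them DESeq2 (0.27, adjusted p = 0.0304). Without the late-clock libraries Gart and Mthfd1l passed in Selfox (adjusted p = 0.0197 and 0.0267). In LPS, Mtr (adjusted p = 0.0385), Cth and, as given above, Shmt2 passed without those libraries. Psat1 in LPS passed with DESeq2 (adjusted p = 0.0311) and without LPS 1 (adjusted p = 0.042). Without Control 46 its log2 fold change in LPS was -0.41 (adjusted p = 0.323). Between Selfox and LPS, Chdh was called higher and Pemt lower in Selfox without the late-clock libraries.

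Genes of the neighbouring steps, which are no members, were read out of the same fit. Their counts stand beside the shares over all tested genes: 14.2% higher and 14.9% lower in Selfox, and 7.71% higher and 6.99% lower in LPS. Of 8 tested folate genes outside the set, 2 were higher and 3 lower in Selfox, and 1 was higher and 2 lower in LPS. Tyms, thymidylate synthase, had 5.79, 7.24 and 9.56 CPM in Selfox, 3.52, 4.43 and 5.1 CPM in LPS and 3.82, 4.22 and 4.83 CPM in Control. Every Selfox library was above every library of the other groups, which overlapped. Tyms rose in Selfox by 0.80 ± 0.11 against Control (adjusted p = 1.59e-05) and by 0.74 ± 0.10 against LPS (adjusted p = 3.04e-05); LPS differed from Control by 0.05 ± 0.11 (adjusted p = 0.794). Of 8 cell cycle markers other than Tyms, 6 were higher in Selfox than in LPS, while against Control none passed edgeR's test in Selfox, adjusted or at an unadjusted p of 0.05, and 2 were lower in LPS. Their summed level was 35.2 to 69.8 CPM in Selfox, 23.7 to 41.2 in LPS and 32.1 to 58 in Control; their part in the Tyms result was not tested.

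Slc25a32, the mitochondrial folate carrier, fell by 0.81 ± 0.18 in Selfox (adjusted p = 0.00161) and by 0.66 ± 0.19 in LPS (adjusted p = 0.0252), with 32.5 to 79.5 CPM in Selfox, 42.3 to 69.8 in LPS and 72.4 to 121 in Control. The Slc25a32 call in LPS was lost with the late-clock libraries left out (adjusted p = 0.0682), and also without Control 40 (adjusted p = 0.0637) or Control 49 (adjusted p = 0.0566). Folr2, a folate receptor of macrophages, fell in Selfox by 1.31 ± 0.30 against Control (adjusted p = 0.00252) and by 1.08 ± 0.29 against LPS (adjusted p = 0.0139). All 8 Kupffer cell markers were lower in Selfox in both comparisons, with a summed level of 226 to 351 CPM in Selfox, 569 to 862 in LPS and 649 to 878 in Control, and their part in the Folr2 result was not tested.

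Of 14 tested serine and glycine genes outside the set, 5 were higher and 1 lower in Selfox, and 2 were higher and none lower in LPS. Gcat, which makes acetyl-CoA and glycine from a threonine product, rose by 0.88 ± 0.11 in Selfox (adjusted p = 7.05e-06) and by 0.47 ± 0.12 in LPS (adjusted p = 0.00822). Sdsl, a serine dehydratase homologue, rose by 0.69 ± 0.11 in Selfox (adjusted p = 0.000111) and by 0.42 ± 0.12 in LPS (adjusted p = 0.0188), the second lost without Control 49 (adjusted p = 0.0625). Dld, the dihydrolipoamide dehydrogenase that completes the glycine cleavage system, rose by 0.46 ± 0.10 in Selfox (adjusted p = 0.00101) and stood at 0.26 ± 0.10 in LPS (adjusted p = 0.0839). Glyctk, glycerate kinase, rose by 0.70 ± 0.18 in Selfox (adjusted p = 0.00536).

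Of 24 tested genes of methyl transfer and methionine salvage, 7 were higher and 4 lower in Selfox, and 5 were higher and 1 lower in LPS. Gatm, which makes the creatine precursor guanidinoacetate from glycine, rose in Selfox by 0.67 ± 0.13 against Control (adjusted p = 0.000476) and by 0.85 ± 0.12 against LPS (adjusted p = 6.05e-05). Pcyt2, of phosphatidylethanolamine synthesis, rose by 0.49 ± 0.09 in Selfox (adjusted p = 0.000363) and by 0.36 ± 0.10 in LPS (adjusted p = 0.0155), and Sms, spermine synthase, rose by 0.43 ± 0.10 in Selfox (adjusted p = 0.00235).

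Past cysteine, 6 of 13 tested sulfur amino acid genes were higher and none lower in Selfox, and 4 were higher and 1 lower in LPS. Suox, sulfite oxidase, rose by 0.58 ± 0.06 in Selfox (adjusted p = 1.29e-06) and by 0.37 ± 0.07 in LPS (adjusted p = 0.00109). Ethe1, the mitochondrial persulfide dioxygenase, rose by 0.86 ± 0.15 in Selfox (adjusted p = 0.000208) and by 0.88 ± 0.16 in LPS (adjusted p = 0.000955). Tst, which transfers sulfur to cyanide, rose by 0.62 ± 0.12 in Selfox (adjusted p = 0.000681) and by 0.56 ± 0.13 in LPS (adjusted p = 0.00587). Csad, of taurine synthesis, rose in Selfox by 0.52 ± 0.11 against Control (adjusted p = 0.00138) and by 0.58 ± 0.11 against LPS (adjusted p = 0.000659).

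Of 10 tested purine synthesis genes, 4 were lower and 1 higher in Selfox, and 3 were lower and 1 higher in LPS. Ppat, the first committed enzyme, had 34.1, 39.6 and 55.6 CPM in Selfox, 44.8, 51.6 and 58.7 CPM in LPS and 64.6, 71.6 and 82.5 CPM in Control. Both models lay wholly below Control. Ppat fell by 0.80 ± 0.09 in Selfox (adjusted p = 1.28e-06) and by 0.47 ± 0.10 in LPS (adjusted p = 0.00214), and was lower in Selfox than in LPS by -0.33 ± 0.08 (adjusted p = 0.0107), a difference that did not pass without the late-clock libraries (-0.25, adjusted p = 0.152). Prps1, which makes phosphoribosyl pyrophosphate, fell by 0.33 ± 0.08 in Selfox (adjusted p = 0.00213) and by 0.33 ± 0.08 in LPS (adjusted p = 0.00936). Impdh2 and Gmps, on the guanine branch, each fell by 0.32 in Selfox (adjusted p = 0.00191 and 0.00453), beside the fall of Atic.

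Among 11 tested genes of vitamin B12 and B6 handling, 2 were higher and 2 lower in Selfox, and 1 was higher and 1 lower in LPS. Pdxp, a pyridoxal phosphate phosphatase, fell by 1.93 ± 0.35 in Selfox (adjusted p = 0.000346) and by 2.40 ± 0.40 in LPS (adjusted p = 0.000575), at levels of 0.156 to 0.601 CPM in Selfox, 0.0826 to 0.476 in LPS and 0.402 to 1.85 in Control. Mmab, of adenosylcobalamin synthesis, rose by 0.76 ± 0.21 in Selfox (adjusted p = 0.00907) and by 0.75 ± 0.23 in LPS (adjusted p = 0.0272), the second lost in 6 of 13 fits with 1 library left out (LPS 5, LPS 7, Control 41, Control 46, Control 49 or Control 52). Mmaa, of the same list, rose by 0.31 ± 0.10 in Selfox (adjusted p = 0.018), a call lost without Control 49. Tcn2, the plasma carrier of cobalamin, fell by 0.21 ± 0.08 in Selfox (adjusted p = 0.0363), a call lost in 9 of 16 fits with 1 library left out.

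Phgdh, Psat1 and Mthfd2, all lower in Selfox, are among the members known as targets of ATF4, the transcription factor of the amino acid response. Shmt2 and Aldh1l2 are known targets too and were not lower in Selfox (log2 fold changes of 0.49 and 0.05, of which only Shmt2 passed). A list of Atf4 and its targets outside the pathway had 16 tested genes. None was higher and 5 were lower in Selfox, and none was higher and 1 lower in LPS. The share called was 31.2% in Selfox, where 29.1% of all tested genes were called (14.9% lower), and 6.25% in LPS, where 14.7% were. In Selfox 6 of the 16 had a positive fold change, the highest at 1.31 on the log2 scale, and 10 a negative one. Slc3a2, the heavy chain of amino acid exchangers, fell by 0.78 ± 0.11 in Selfox (adjusted p = 2.89e-05) and by 0.72 ± 0.12 in LPS (adjusted p = 0.000578), with 62.2 to 96.2 CPM in Selfox, 58.2 to 102 in LPS and 100 to 160 in Control. Trib3, a pseudokinase, fell in Selfox by 1.52 ± 0.27 against Control (adjusted p = 0.000328) and by 0.99 ± 0.26 against LPS (adjusted p = 0.0133), the second lost without the late-clock libraries (-0.71, adjusted p = 0.209). Atf5 fell by 0.58 ± 0.13 in Selfox (adjusted p = 0.00245). Atf4 itself passed only between the models, where it was lower in Selfox than in LPS by -0.60 ± 0.13 (adjusted p = 0.00334). Asns fell by 1.06 ± 0.38 in Selfox (adjusted p = 0.0426), a call lost in 11 of 16 fits with 1 library left out. Eif4ebp1, a repressor of translation, fell by 0.54 ± 0.13 in Selfox (adjusted p = 0.00376), and the other 11 genes of the list did not pass there.

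**Figure D5:**
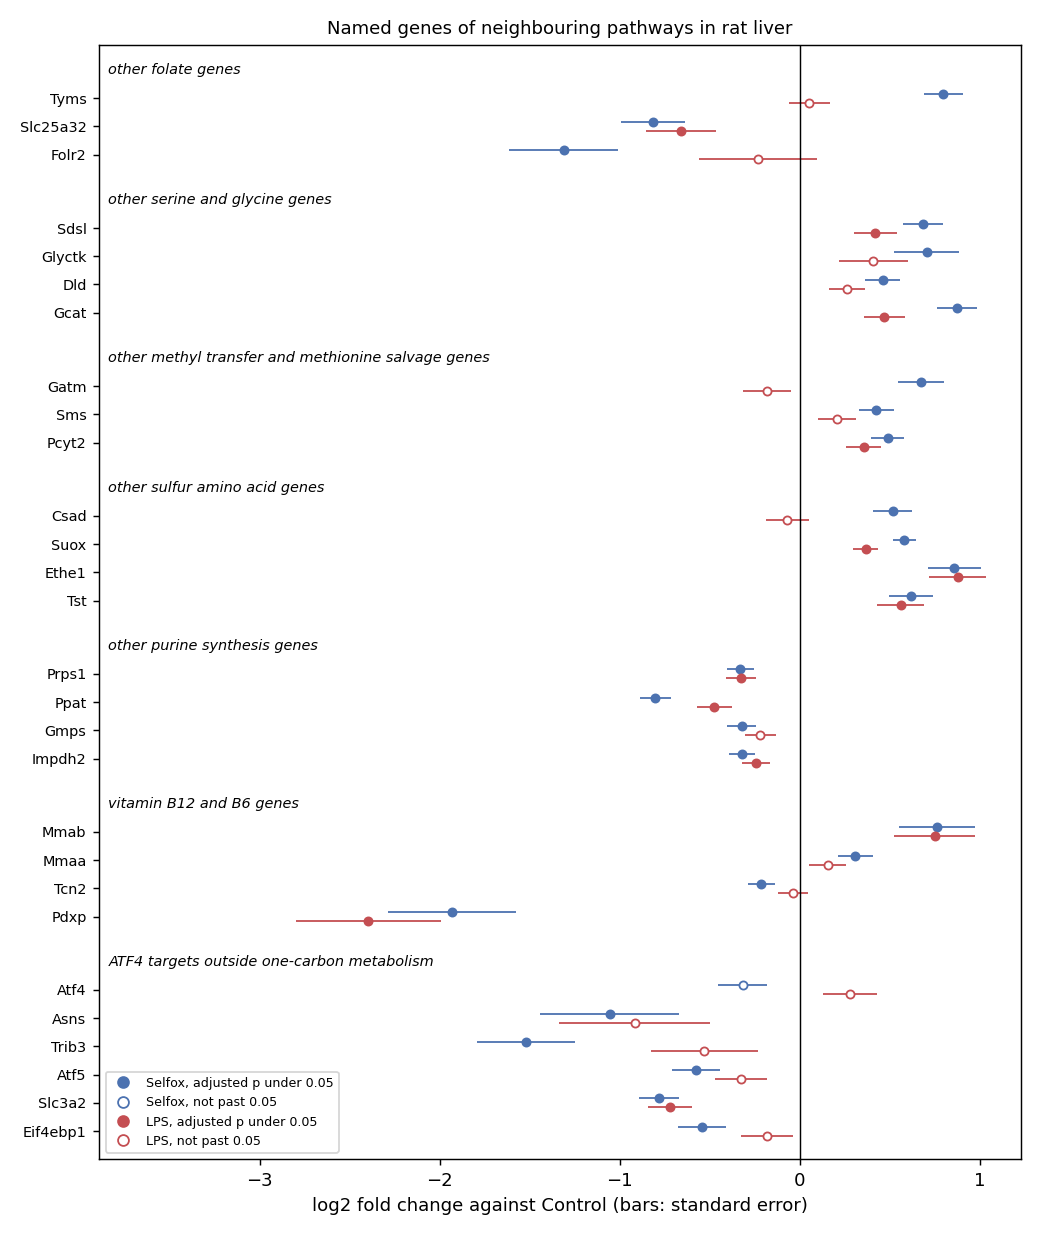
Log2 fold change against Control for genes outside the 37 that are named in the text, by list, in Selfox (blue) and LPS (red); bars are standard errors and filled points have an adjusted p under 0.05. Tyms, Gatm and Csad stand to the right of 0 in Selfox and near 0 in LPS, and Ethe1 and Tst stand to the right in both.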

How the data were processed

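Gene counts of 23 rat liver libraries were used as deposited by the authors. Libraries were made with the TruSeq stranded mRNA kit, per the labels' protocols. The reads went through FastQC, Trim Galore, STAR 2.7.9a and featureCounts of Subread 2.0.3, per the submitters' processing notes. For genome build, annotation and strandedness, the choice is not given in the sources used here. Close paralogs, and genes that overlap on either strand, may therefore share counts.

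Genes passing edgeR's filterByExpr with a minimum count of 10 were kept (15079 of 21753 with any count). Counts were scaled by TMM and fitted in 1 model of the 3 groups with edgeR 4.0.16 in R 4.3.3 (quasi-likelihood F test, robust). Adjusted p-values are Benjamini-Hochberg over all genes tested, with a threshold of 0.05. Fold changes are Selfox or LPS over Control and Selfox over LPS, and each SE was derived from the fold change and its F. CPM are counts in proportion to the TMM-scaled library. The step was tested on simulated data.

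The 37 members and all gene lists were chosen with earlier results of these data known. Every member is accounted for: those past the threshold are given with their statistics, with library values where a called log2 fold change reached 0.5, and of each other list up to 4 genes with the lowest adjusted p are named; 2 of these are not reported here. Alternatives were DESeq2 1.42.0, limma 3.58.1 voom, other scalings and filters, halved or thinned counts, 2 groups alone, libraries left out and a replicate block; leaving Tyms out of the cell cycle list was chosen after seeing the data. Promoter windows come from RefSeq (GRCr8).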

Additional observations from a re-analysis of the deposited data

Results flagged for a closer look

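In 7 of 111 sets of member values by group, 1 library stood apart from its group by Dixon's criterion on log2 CPM; chance alone marks about 1 in 20 such sets. Phgdh was 4.95 CPM in Selfox 4, where the next highest Selfox library had 1.95. Psat1 was 37.4 CPM in Control 46, where the next had 14.5. Shmt2 was 156 CPM in Control 55, where the next had 120. Mthfd1l was 0.952 CPM in LPS 6, where the next had 0.583. Slc46a1 was low in Selfox 5 at 31.3 CPM, where the next lowest had 42. Gcsh was low in LPS 7 at 108 CPM, where the next lowest had 134, and Chdh was low in LPS 4 at 181 CPM, where the next lowest had 243.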

How the results depend on the processing

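No gene named with a call reversed the sign of its fold change under any alternative. Medians near 0 did change sign: the Selfox median of the members (0.00447) was -0.00367 with upper-quartile factors, -0.0457 with thinned counts and -0.00505 without the late-clock libraries, and the LPS median of all genes (0.0058) was -0.0178 with upper-quartile factors, where calls over all genes were 989 higher and 1194 lower, against 1163 higher and 1054 lower as reported. Against Control, members called higher numbered 11 to 12 in Selfox (12 as reported) and 8 to 11 in LPS (9 as reported) over 10 alternatives, and members called lower 7 to 12 in Selfox (10) and 2 to 4 in LPS (3). Between Selfox and LPS, members called lower numbered 6 with DESeq2 against 3 as reported, the added ones being Phgdh, Psat1 and Shmt1. With libraries left out singly, these lower calls ran from 2 to 5, the highest without LPS 6 or without Selfox 4, and the calls over all genes in LPS against Control ran from 1409 without Control 49 to 2723 without Control 55 (2217 as reported). Members higher ran from 6 without Control 49 to 10 in LPS and from 9 without Control 49 to 12 in Selfox, and members lower in Selfox from 7 without Control 41 to 11. Without the late-clock libraries, members called were 11 higher and 12 lower in Selfox and 9 higher and 3 lower in LPS, and all genes called between Selfox and LPS numbered 1434, against 2187 as reported. The causes were not tested.

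Same-numbered LPS and Selfox libraries deviated together with correlations of -0.0457 to 0.177, and 1 of 7 LPS libraries correlated best with its own number. No pairing by number was thus seen, but a link that leaves no shared deviation would be missed this way. With a replicate block for the shared numbers, 3 members were higher and 1 lower between Selfox and LPS, and 1259 genes were called in all; the same libraries with no replicate block gave 4, 2 and 1617. Under the block the differences between Selfox and LPS for Psph, Bhmt2, Mthfd2, Folr2, Ppat, Trib3 and Atf4 did not pass (adjusted p between 0.0556 and 0.247). For Mthfd2 the difference did not pass in the same libraries with no block either (adjusted p = 0.159).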
